A study of Mus musculus with 20 samples.

Results

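NRF2, the product of Nfe2l2, is a transcription factor that turns on genes for antioxidant and detoxifying enzymes. The genes described here are 10 of its best known targets in mouse and human cells, namely Srxn1, Txnrd1, Gclc, Gclm, Slc7a11, Nqo1, Ephx1, Hmox1, G6pdx and Osgin1. They were taken by symbol, and each of the 10 was found among the 55367 genes listed for every library. All 10 passed the filter on low counts, which left 16598 genes for testing.

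RNA was measured in the hearts of C57BL/6J mouse pups that breathed either 100% oxygen (hyperoxia) or 21% oxygen (room air) between birth and postnatal day 4. The 4 groups were hyperoxic left atrium, room-air left atrium, hyperoxic left ventricle and room-air left ventricle, with 5 libraries each, and each library number stood for 1 of the 5 mice of its group. The pups carried no engineered allele, and the dams that nursed them were moved between the oxygen levels every 24 hours. Libraries were made with a stranded mRNA kit, while the sample records name a Direct-zol kit for the extraction and the series description an RNeasy plus kit.

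In resting cells the adaptor protein KEAP1 binds NRF2 and presents it to a CUL3 ubiquitin ligase, so that NRF2 is degraded as it is made. Oxidants and electrophiles modify cysteines of KEAP1, NRF2 then accumulates, pairs with a small MAF protein and binds antioxidant response elements near its targets. The control is thus mainly on the NRF2 protein, which RNA counts do not measure. Oxygen in excess raises the production of reactive oxygen species in mitochondria and by oxidases, and mice without NRF2 are known to be more sensitive to hyperoxic lung injury.

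Antioxidant response elements hold the core TGACNNNGC or, in many genes, TGAGNNNGC. The form TGAGTCAGC contains TGAGTCA, which AP-1 factors also bind. Windows from 250 bases before to 50 bases after the annotated start were available from RefSeq on build GRCm38.p6 for 8 of the 10 genes, in 10 windows, since Txnrd1 has more than 1 start. Hmox1 and Gclc are named only. Every site below is shown because it matches a core in the window of its gene. Each is written on the strand of the gene, 5′ to 3′, with the matching letters in capitals, so that a match on the opposite strand appears as its complement.
Srxn1 at -45: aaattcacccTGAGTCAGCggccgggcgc
Srxn1 at -158: tctactgagaGCCGACTCAtcctctctgg
Srxn1 at +29: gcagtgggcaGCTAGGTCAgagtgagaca
Osgin1 at -99: aggggcccctGCTGACTCAcgcttatgaa
Gclm at -134: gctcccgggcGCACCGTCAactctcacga
Txnrd1 at -92: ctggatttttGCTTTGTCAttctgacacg
Slc7a11 at -97: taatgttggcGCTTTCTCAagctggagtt
G6pdx at -57: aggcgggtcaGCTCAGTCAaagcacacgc

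Positions in these names are those of the leftmost capital relative to the start of transcription that RefSeq gives for the window. The matches of Osgin1, Txnrd1 and G6pdx lie inside the gene spans given below. Those spans come from GENCODE and begin further upstream, so these matches are not next to the outermost start. The Srxn1 match at -45 lies at chr2:152105479-152105487 on the plus strand, and the Osgin1 match at -99 lies at chr8:119437048-119437056. Searched on both strands, TGACNNNGC was present in 4 of 10 windows, from 4 of 8 genes, against 12.4% of all 32851 windows. The form TGAGNNNGC was present in 3 of 10 windows, from 3 of 8 genes, against 17.6% of all windows. TGAGTCAGC was present in 2 of 10 windows, from 2 of 8 genes, Srxn1 and Osgin1, against 0.414% of all windows. Each of these matches is also counted under TGAGNNNGC. No core was found in these windows for Nqo1 and Ephx1, which says nothing of sites further away. These matches are descriptions of sequence and were not measured as binding sites.

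Slc7a11 is also known as a target of ATF4, the transcription factor of amino acid starvation. ATF4 binds C/EBP-ATF response elements such as TGATGNAA, so its matches are shown as well.
Slc7a11 at -66: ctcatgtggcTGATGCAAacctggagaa
Slc7a11 at -47: cctggagaatTTGCATCAtcatgcagcc
Slc7a11 was the only gene of the 8 with a match to TGATGNAA, which was present in 1 of 10 windows, against 3.97% of all windows.

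Total counts lay between 26510081 and 38244117 per library, and no pair of libraries of a group agreed within sampling noise. Y-linked counts exceeded Xist counts in all 10 room-air libraries, in hyperoxic atrium 2 and in hyperoxic ventricles 2 and 6, so sex and oxygen were partly confounded. Hyperoxic atria 2 and 4 and room-air ventricle 4 were tilted towards short transcripts, with a length slope of -0.294, -0.289 and -0.225, against -0.0705 to 0.135 in the other libraries. Atrial cardiomyocyte markers summed to 26140 to 50330 CPM (counts scaled to library size) in hyperoxic atria and 18230 to 23380 CPM in room-air atria, against 288 to 907 CPM in hyperoxic ventricles and 1080 to 1996 CPM in room-air ventricles. Ventricular cardiomyocyte markers summed to 813 to 1282 CPM and 931 to 1393 CPM in the same atrial groups, against 21880 to 24860 CPM and 23240 to 42790 CPM in the ventricular ones. The tissue labels therefore held in all 20 libraries. In such bulk samples, fewer cells of a type and less RNA per cell cannot be told apart.

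In the left atrium 7 of the 10 genes rose in hyperoxia, from Osgin1 at 7.29-fold down to Gclm at 1.14-fold, and 3 did not pass the test. The threshold was an adjusted p of 0.05 in edgeR's quasi-likelihood test, with Benjamini-Hochberg adjustment over 16598 genes. Of all genes tested, 43.9% passed in this comparison, 19.7% as higher and 24.2% as lower. DESeq2 also called 7 members higher, and limma voom called 9. Of the 3 that did not pass, Gclc passed under 4 of 34 other settings, G6pdx under 2 and Nqo1 under 0. No member was lower, whether by edgeR, at an unadjusted p under 0.05 (0 genes), by DESeq2 (0 genes) or by limma voom (0 genes). The median log2 difference of the 10 genes was 0.718, and that of all genes was -0.0627. In the left ventricle 1 of the 10 genes, Ephx1, fell and none rose, where 10.9% of all genes passed, 5.28% as lower and 5.64% as higher.

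**Figure D1:**
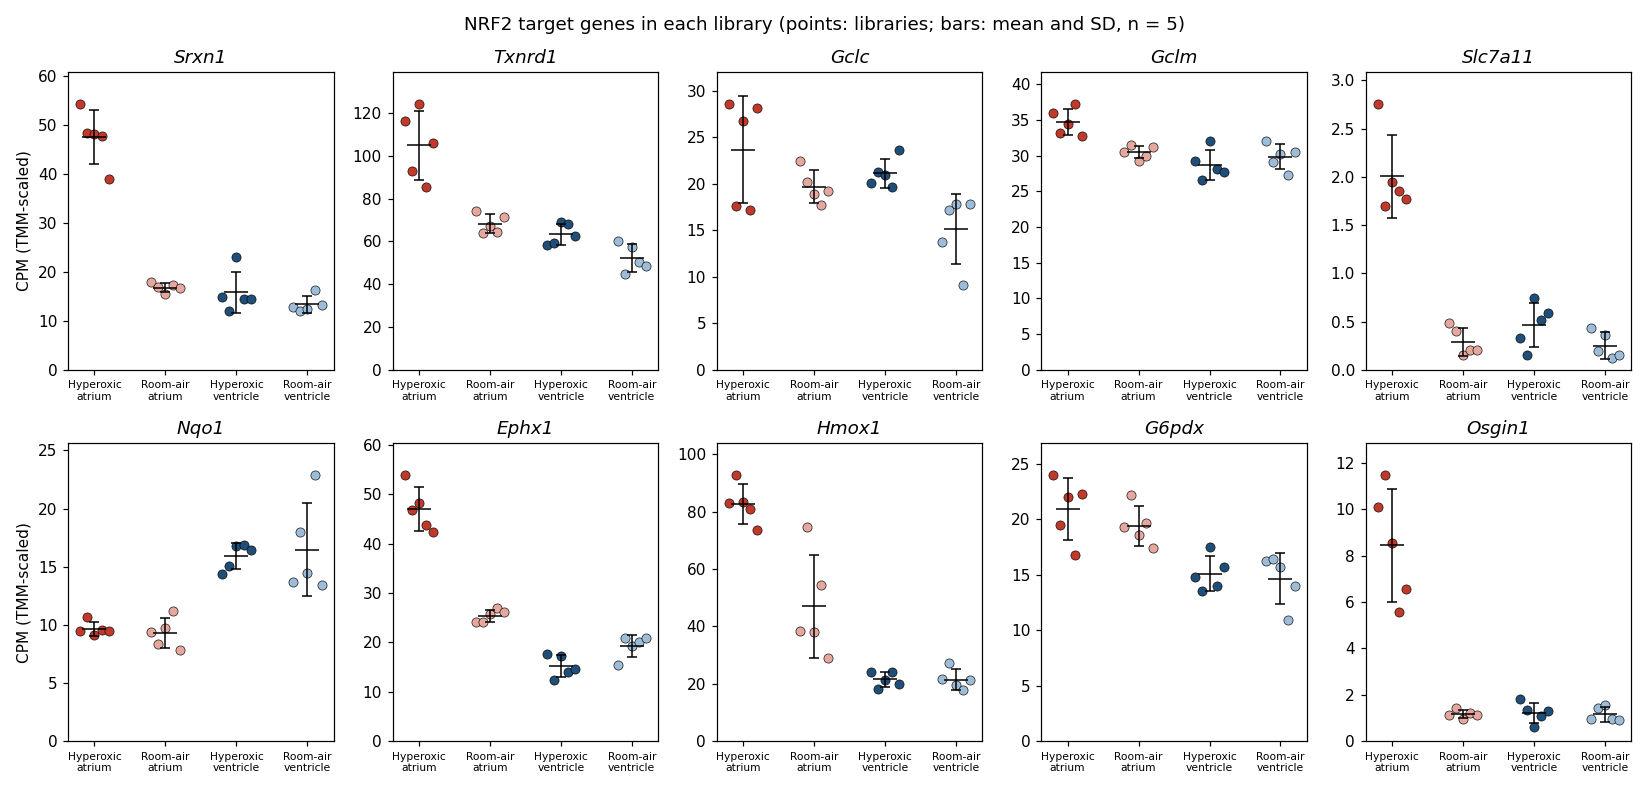
CPM of each of the 10 genes, 1 panel per gene, in the 5 libraries of hyperoxic atrium, room-air atrium, hyperoxic ventricle and room-air ventricle; points are libraries, and bars give the mean and SD. Srxn1, Osgin1, Slc7a11, Ephx1 and Txnrd1 lie higher in every hyperoxic atrium than in any other library, and Nqo1 lies higher in the ventricles.

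Srxn1 encodes sulfiredoxin, which repairs peroxiredoxins that hydrogen peroxide has over-oxidised, at the cost of ATP. The gene lies at chr2:152105516-152111376 on the plus strand of GRCm38. Levels are given in the order of the library numbers, which are 1, 2, 4, 5 and 6 for hyperoxic ventricles and 1 to 5 elsewhere. Srxn1 stood at 54.4, 48.3, 48.3, 47.8 and 39.0 CPM in the hyperoxic atria, against 17.9, 16.9, 15.4, 17.3 and 16.6 CPM in the room-air atria. Every hyperoxic atrium lay far above every room-air one, so the groups did not overlap. Its mean was 47.5 ± 5.5 CPM in hyperoxic atria and 16.8 ± 0.926 CPM in room-air atria (SD, n = 5 each), a log2 difference of 1.499 with a standard error (SE) of 0.13 and an edgeR adjusted p of 1.32e-08. In the ventricle Srxn1 stood at 14.96, 12.0, 23.0, 14.6 and 14.6 CPM in hyperoxia, against 12.9, 12.1, 12.4, 16.3 and 13.2 CPM in room air. The ventricular groups overlapped, hyperoxic ventricle 4 lay above the rest, and the log2 difference of 0.24 did not pass (SE 0.13, edgeR adjusted p = 0.227). The atrial response exceeded the ventricular one by 1.26 on the log2 scale (SE 0.19, edgeR adjusted p = 4.61e-05). Its promoter window is the one with 3 of the printed core matches.

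Txnrd1 encodes cytosolic thioredoxin reductase, a selenoprotein that uses NADPH to keep thioredoxin reduced, and lies at chr10:82833951-82897712 on the plus strand. It stood at 116, 93.0, 124, 85.3 and 106 CPM in hyperoxic atria, against 74.4, 64.0, 67.2, 64.5 and 71.5 CPM in room-air atria. The groups did not overlap, although hyperoxic atria 2 and 4 were lower than the other 3. Txnrd1 rose 1.54-fold in the atrium (log2 difference 0.62, SE 0.10, edgeR adjusted p = 3.88e-05). In the ventricle it averaged 63.4 ± 4.94 CPM in hyperoxia, against 52.2 ± 6.39 CPM in room air (SD, n = 5 each), and the log2 difference of 0.28 did not pass (SE 0.10, edgeR adjusted p = 0.0738). The responses of the chambers differed by 0.34, which did not pass either (SE 0.14, edgeR adjusted p = 0.0658). It passed under 12 of 34 other settings, among them leaving out hyperoxic atrium 2 (0.38) or 4 (0.41), hyperoxic ventricle 5 (0.44) or room-air ventricle 2 (0.39). The ventricular difference passed under 4 of 34 other settings, among them leaving out hyperoxic atrium 4 (log2 difference 0.28, edgeR adjusted p = 0.0472).

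Gclc and Gclm encode the catalytic and the modifier subunit of glutamate-cysteine ligase, the rate-limiting enzyme of glutathione synthesis. The catalytic subunit gene lies at chr9:77754535-77794485 on the plus strand. Gclc stood at 28.6, 17.6, 26.8, 17.1 and 28.2 CPM in hyperoxic atria, against 22.4, 20.2, 18.9, 17.7 and 19.2 CPM in room-air atria. Hyperoxic atria 1, 3 and 5 lay above every room-air atrium, while hyperoxic atria 2 and 4, the libraries tilted towards short transcripts, lay below all of them. The log2 difference of 0.27 did not pass (SE 0.16, edgeR adjusted p = 0.191), and without the 3 tilted libraries it was 0.50 and passed (SE 0.10, edgeR adjusted p = 0.000166). In the ventricle Gclc stood at 20.1, 21.2, 20.9, 19.6 and 23.6 CPM in hyperoxia, against 13.8, 17.1, 17.8, 9.08 and 17.8 CPM in room air. The ventricular groups did not overlap, yet the log2 difference of 0.48 did not pass (SE 0.16, edgeR adjusted p = 0.0612). Without the tilted libraries, of which the lowest room-air ventricle was 1, it was 0.34 and passed (SE 0.09, edgeR adjusted p = 0.0120). It passed under 8 of 34 other settings in all, among them leaving out hyperoxic atrium 2 or 4, both at 0.48, or room-air ventricle 3, at 0.55.

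Gclm, at chr3:122245557-122270732 on the plus strand, stood at 35.9, 33.2, 34.4, 37.3 and 32.8 CPM in hyperoxic atria, against 30.6, 31.5, 29.3, 29.9 and 31.3 CPM in room-air atria. All hyperoxic atria were above all room-air atria, by a narrow margin. The log2 difference was 0.19 (SE 0.07, edgeR adjusted p = 0.0362). The call was lost under 12 of 34 other settings, among them leaving out any of hyperoxic atria 1, 3 and 4 or room-air atria 1, 2, 3 and 4, where the log2 difference was 0.16 to 0.20, and adding the Y-linked to Xist ratio as a covariate, where it was 0.03. In the ventricle Gclm averaged 28.8 ± 2.10 CPM in hyperoxia, against 29.9 ± 1.72 CPM in room air (SD, n = 5 each; log2 difference -0.05). The difference of the responses, 0.24, did not pass (SE 0.10, edgeR adjusted p = 0.0643). It passed under 9 of 34 other settings, among them leaving out hyperoxic ventricle 4 (0.28) or 5 (0.31) or room-air ventricle 4 (0.27). Gclm shares exonic bases with a predicted gene on its own strand, Gm6061, and with another on the opposite strand, Gm17494, so that its count is uncertain where reads could be assigned to either.

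Slc7a11 encodes xCT, the light chain of the cystine-glutamate exchanger that supplies cysteine for glutathione, and lies at chr3:49892526-50443614 on the minus strand. It was the scarcest of the 10 transcripts, with 111, 60, 80, 58 and 62 reads in hyperoxic atria, against 17, 17, 6, 8 and 7 reads in room-air atria. As levels these are 2.76, 1.70, 1.94, 1.85 and 1.77 CPM in hyperoxia, against 0.482, 0.400, 0.156, 0.207 and 0.202 CPM in room air. The groups were far apart, and the log2 difference was 2.78 (6.85-fold, SE 0.40, edgeR adjusted p = 8.51e-06). In the ventricle Slc7a11 stood at 0.329, 0.155, 0.740, 0.519 and 0.585 CPM in hyperoxia, against 0.429, 0.190, 0.366, 0.123 and 0.148 CPM in room air. Those groups overlapped, with 4 to 18 reads in hyperoxic and 3 to 11 reads in room-air ventricles, and the log2 difference of 0.86 did not pass (SE 0.44, edgeR adjusted p = 0.188). The responses differed by 1.91 (SE 0.59, edgeR adjusted p = 0.0158), a call lost with the length slope and Y-linked to Xist ratio as covariates (2.08, edgeR adjusted p = 0.0670). In the fit to libraries with more Y-linked counts, where hyperoxic atrium 2 was alone in its group, the difference of the responses was 1.99.

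Nqo1 and Ephx1 encode enzymes that detoxify reactive compounds. NQO1 reduces quinones with a transfer of a pair of electrons and is the most used marker of NRF2 activity, and its gene lies at chr8:107388225-107403206 on the minus strand. Nqo1 stood at 9.44, 10.6, 9.16, 9.52 and 9.44 CPM in hyperoxic atria, against 9.38, 8.38, 9.69, 11.2 and 7.86 CPM in room-air atria. In the ventricle it stood at 14.4, 15.02, 16.8, 16.9 and 16.4 CPM in hyperoxia, against 13.7, 18.0, 14.4, 22.9 and 13.4 CPM in room air. The oxygen groups overlapped in both chambers. Neither difference passed, with a log2 value of 0.05 in the atrium (SE 0.13, edgeR adjusted p = 0.775) and -0.05 in the ventricle (SE 0.13, edgeR adjusted p = 0.823), and the atrial value was negative under 3 of 34 other settings.

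Ephx1 encodes microsomal epoxide hydrolase, which opens reactive epoxides with water, and lies at chr1:180976210-181020904 on the minus strand. It stood at 53.9, 46.7, 48.3, 43.8 and 42.3 CPM in hyperoxic atria, against 24.1, 24.2, 25.8, 26.9 and 26.1 CPM in room-air atria. The groups were widely separated, with a log2 difference of 0.89 (SE 0.10, edgeR adjusted p = 4.66e-07). In the ventricle Ephx1 stood at 17.6, 12.4, 17.3, 14.05 and 14.7 CPM in hyperoxia, against 15.5, 20.8, 19.2, 20.003 and 20.8 CPM in room air. Room-air ventricle 1 lay within the hyperoxic range and the other 4 above it. Ephx1 fell in the ventricle by 0.34 on the log2 scale (SE 0.10, edgeR adjusted p = 0.0388). The call was lost under 13 of 34 other settings, among them leaving out any of hyperoxic ventricles 2, 5 and 6 or room-air ventricles 2, 3, 4 and 5, while the log2 difference kept its sign. The responses of the chambers, of opposite sign, differed by 1.23 (SE 0.14, edgeR adjusted p = 3.51e-06). Ephx1 shares exonic bases with the predicted gene Gm36961 on its own strand.

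No gene of the 10 passed as higher in the ventricle with edgeR. At an unadjusted p under 0.05 there were 2, Gclc and Txnrd1. DESeq2 called 1 and limma voom called 2. The median log2 difference of the 10 genes was 0.0734 in the ventricle, and that of all genes was -0.00572.

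Hmox1 encodes haem oxygenase 1, which cleaves haem to biliverdin, iron and carbon monoxide and is held down by BACH1 until haem or NRF2 displaces it. It lies at chr8:75093621-75100589 on the plus strand. Hmox1 stood at 82.9, 92.8, 83.3, 80.9 and 73.6 CPM in hyperoxic atria, against 38.5, 74.8, 38.0, 54.5 and 29.0 CPM in room-air atria. The levels overlapped through room-air atrium 2, while the other 4 lay below the hyperoxic range. The mean was 82.7 ± 6.87 CPM in hyperoxic atria and 47.0 ± 18.1 CPM in room-air atria (SD, n = 5 each), a log2 difference of 0.82 (SE 0.18, edgeR adjusted p = 0.000757). Without room-air atrium 2 the log2 difference was 1.05. With the Y-linked to Xist ratio as a covariate it was 0.72 and did not pass (SE 0.29, edgeR adjusted p = 0.0727). The ventricular mean was 21.6 ± 2.58 CPM in hyperoxia, against 21.4 ± 3.57 CPM in room air (log2 difference 0.01, SE 0.18, edgeR adjusted p = 0.975). The responses differed by 0.80 (SE 0.25, edgeR adjusted p = 0.0168), a call lost under 5 of 34 other settings, including the fit without the tilted libraries (0.81, edgeR adjusted p = 0.0677).

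Macrophages take up red cells and are known to express Hmox1 strongly. Of 14 macrophage markers, 10 rose in the hyperoxic atrium, where 19.7% of all genes rose. In the hyperoxic ventricle 4 of the markers rose, where 5.64% of all genes did, and no marker was at 0. The summed level of the markers was 342 to 634 CPM in hyperoxic atria and 251 to 297 CPM in room-air atria. In the ventricle it came to 179 to 209 CPM in hyperoxia, against 129 to 164 CPM in room air. The room-air atrium with 74.8 CPM of Hmox1 had the highest marker sum of its group, 296.5 CPM, and the hyperoxic atrium with 92.8 CPM had the highest of all, 633.8 CPM. Room-air atrium 4, however, had more Hmox1 than room-air atrium 3 but the lower marker sum, 258.8 against 266.9 CPM. In the ventricle the marker sums did not overlap between the oxygen groups, whereas the Hmox1 levels did. Erythroid markers, which mark the cells that carry most haem, summed to 5730, 2246, 2130, 3099 and 1741 CPM in hyperoxic atria, against 1079, 6002, 2111, 3472 and 2180 CPM in room-air atria. The room-air atria with the highest sums, numbers 2 and 4, were also those with the most Hmox1, while the erythroid sums of the atrial oxygen groups overlapped. Among the hyperoxic atria, number 1 had the highest erythroid sum and number 2 the most Hmox1. The part of macrophage or erythroid RNA in the Hmox1 result was not tested.

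**Figure D2:**
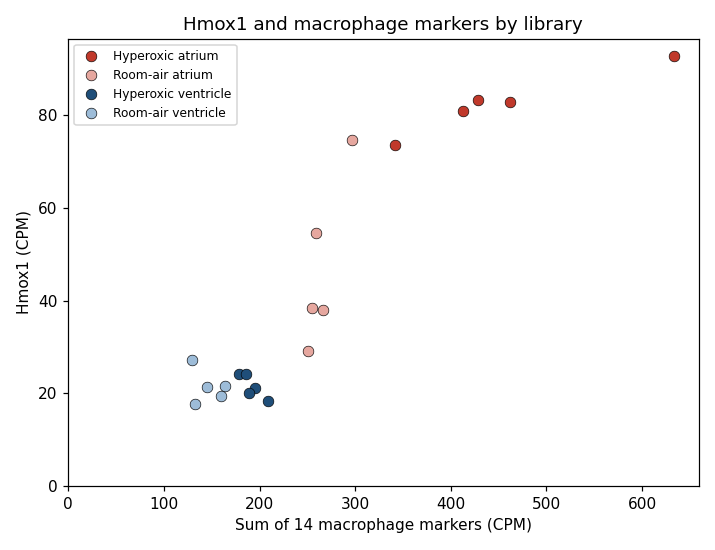
Hmox1 level (CPM) against the summed level of 14 macrophage markers (CPM) in each of the 20 libraries, coloured by group. The hyperoxic atria lie at the upper right, and room-air atrium 2, at 74.8 CPM of Hmox1 and 296.5 CPM of markers, is the room-air library nearest to them.

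G6pdx encodes glucose-6-phosphate dehydrogenase, which makes NADPH at the entry of the pentose phosphate pathway. It is X-linked, at chrX:74409483-74429194 on the minus strand, and its exons overlap those of Ikbkg on the other strand. Its mean was 20.9 ± 2.81 CPM in hyperoxic atria and 19.4 ± 1.80 CPM in room-air atria, and 15.1 ± 1.59 CPM in hyperoxic ventricles and 14.7 ± 2.33 CPM in room-air ventricles (SD, n = 5 each). Neither oxygen difference passed (log2 0.11, edgeR adjusted p = 0.480 in the atrium, and 0.04, edgeR adjusted p = 0.839 in the ventricle), and the groups overlapped in both chambers.

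Osgin1, oxidative stress induced growth inhibitor 1, had the greatest atrial log2 difference of the 10 genes. The protein is known from human cells as an NRF2-induced regulator of growth and cell death, and the mouse gene lies at chr8:119434124-119446256 on the plus strand. Osgin1 stood at 10.1, 11.5, 8.55, 5.56 and 6.56 CPM in hyperoxic atria, against 1.11, 1.41, 0.938, 1.19 and 1.13 CPM in room-air atria. The lowest hyperoxic atrium was well above every room-air atrium, and the log2 difference was 2.87 (SE 0.25, edgeR adjusted p = 1.08e-08). In the ventricle it stood at 1.79, 1.35, 0.616, 1.07 and 1.32 CPM in hyperoxia, against 0.937, 1.40, 1.56, 0.945 and 0.890 CPM in room air. Those groups overlapped widely, with a log2 difference of 0.10 (SE 0.26, edgeR adjusted p = 0.816). The responses differed by 2.76 (SE 0.36, edgeR adjusted p = 1.08e-05).

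**Figure D3:**
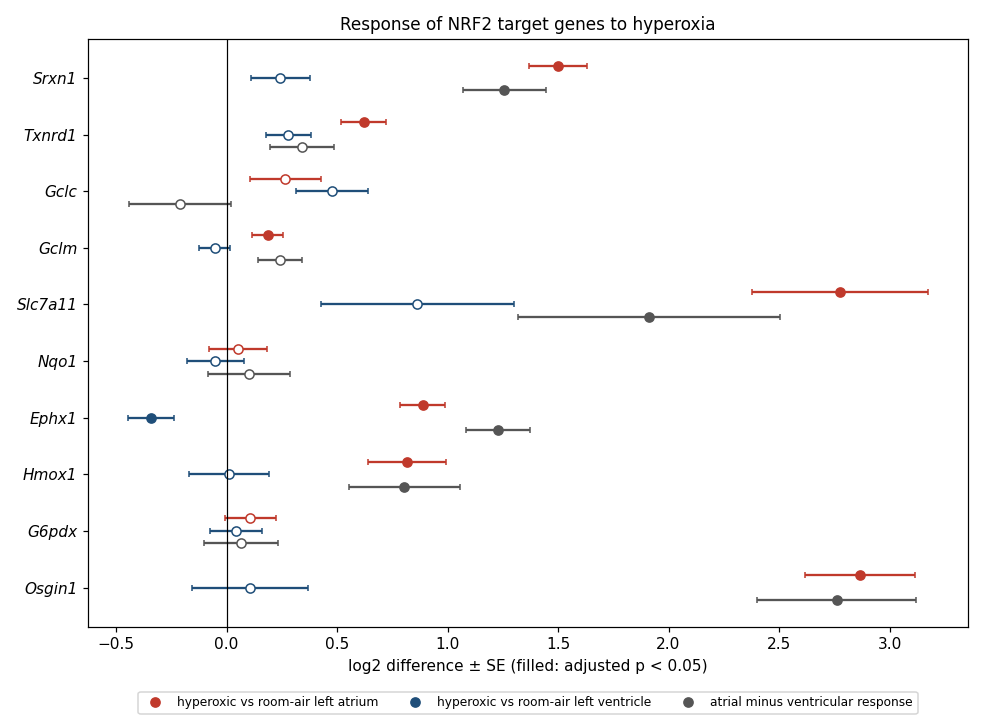
Log2 difference ± SE (edgeR) of hyperoxia over room air in the left atrium and in the left ventricle, and atrial minus ventricular response, for each of the 10 genes; filled points passed at an adjusted p under 0.05. Osgin1 at 2.87 and Slc7a11 at 2.78 have the greatest atrial responses, and Ephx1 at -0.34 is the only filled ventricular point.

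Tested directly, the atrial response was the greater one for 5 of the 10 genes, Osgin1, Slc7a11, Srxn1, Ephx1 and Hmox1. At an unadjusted p under 0.05 there were 7, with Gclm and Txnrd1 added, while DESeq2 called 7 and limma voom 6. Of all genes 36.5% passed this test of the difference, 17.0% as higher in the atrium and 19.5% as lower. For no member was it lower in the atrium, with 0 genes at an unadjusted p under 0.05, 0 by DESeq2 and 0 by limma voom. The median difference was 0.573 for the 10 genes and -0.0636 for all genes. For Gclc, Gclm, Txnrd1, Nqo1 and G6pdx the difference of the responses did not pass, and values ran from -0.21 for Gclc to 0.34 for Txnrd1. The calls of Osgin1, Slc7a11, Srxn1, Ephx1 and Txnrd1 in the atrium itself were kept in all 34 other settings.

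Compared between chambers, 8 of the 10 genes were higher in the atrium under hyperoxia and 1, Nqo1, was lower, where 48.8% of all genes passed, 25.2% as higher and 23.6% as lower. In room air 5 were higher in the atrium and 1, again Nqo1, was lower, where 55.0% of all genes passed, 28.7% as higher and 26.3% as lower. These comparisons use the same libraries as the hyperoxia comparisons and are not independent of them. The median log2 difference of the 10 genes was 1.16 under hyperoxia, against 0.0144 for all genes, and 0.355 in room air, against 0.0253 for all genes.

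Nqo1 averaged 9.64 ± 0.580 CPM in hyperoxic atria, against 15.9 ± 1.118 CPM in hyperoxic ventricles, and 9.30 ± 1.28 CPM in room-air atria, against 16.5 ± 4.02 CPM in room-air ventricles (SD, n = 5 each). Every ventricle lay above every atrium of its oxygen group. The log2 difference, atrium over ventricle, was -0.72 in hyperoxia (SE 0.13, edgeR adjusted p = 8.79e-05) and -0.82 in room air (SE 0.13, edgeR adjusted p = 1.72e-05). Hmox1 ran the other way, 1.94 higher in the atrium on the log2 scale in hyperoxia (SE 0.18, edgeR adjusted p = 9.81e-09) and 1.13 higher in room air (SE 0.18, edgeR adjusted p = 1.69e-05). Macrophage markers were also higher in the atrium. In hyperoxia 13 of 14 of these markers were, against 25.2% of all genes, and in room air 12 of 14, against 28.7%. Their part in the chamber difference of Hmox1 was not tested.

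Osgin1, Slc7a11 and Gclm were higher in the atrium than in the ventricle under hyperoxia, with log2 differences of 2.77, 2.11 and 0.27 (edgeR adjusted p of 5.13e-09, 0.000103 and 0.00298). In room air the differences of these genes were 0.00, 0.19 and 0.03 and did not pass (edgeR adjusted p of 0.990, 0.733 and 0.729). Ephx1 differed by 1.63 in hyperoxia and 0.40 in room air, Txnrd1 by 0.73 and 0.39, and G6pdx by 0.47 and 0.41, all of them passing. Srxn1 differed by 1.59 in hyperoxia and by 0.33 in room air (SE 0.13, edgeR adjusted p = 0.0390), and the room-air call was lost under 12 of 35 other settings. Of these 9 leave out 1 library, namely room-air atrium 1, 2, 4 or 5, room-air ventricle 1, 2, 3 or 5 or hyperoxic ventricle 5, with log2 differences of 0.24 to 0.34. Gclc passed in neither, at 0.17 in hyperoxia and 0.38 in room air (edgeR adjusted p of 0.420 and 0.0551). The hyperoxic difference passed under 4 of 35 other settings and the room-air difference under 9. Among the latter were leaving out hyperoxic atrium 2 or 4, at 0.38 each, and room-air ventricle 3 or 5, at 0.45 and 0.44.

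**Figure D4:**
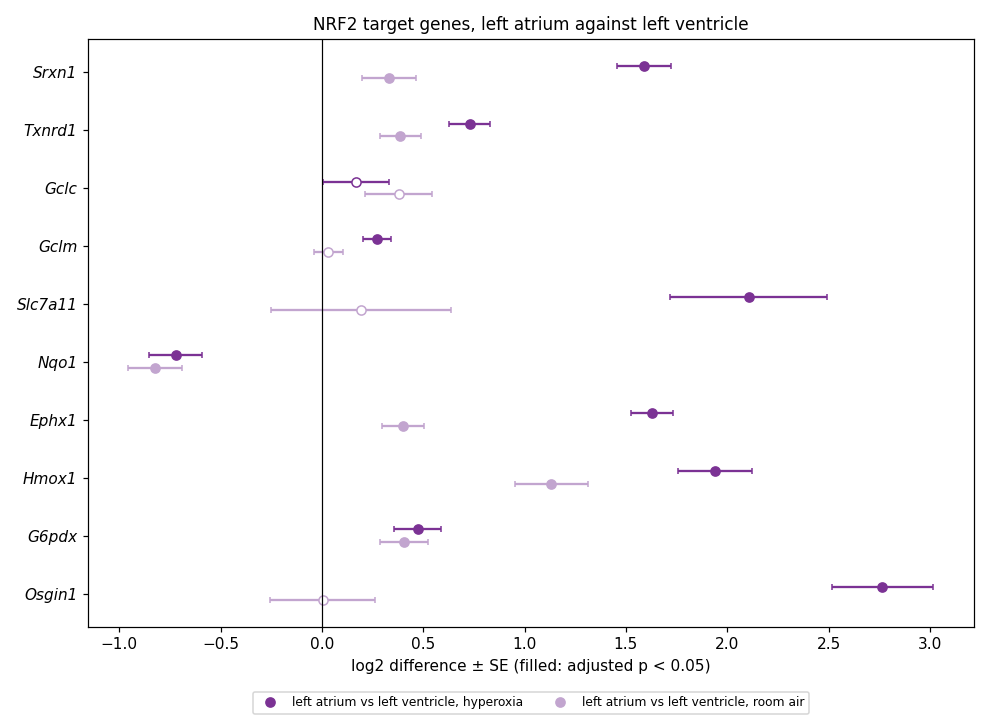
Log2 difference ± SE (edgeR) of left atrium over left ventricle for each of the 10 genes, in hyperoxia and in room air; filled points passed at an adjusted p under 0.05. Osgin1 and Slc7a11 stand at 2.77 and 2.11 in hyperoxia and at 0.00 and 0.19 in room air, while Nqo1 lies below 0 in both.

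To compare levels between genes, CPM were divided by the exonic length in kilobases. Hmox1 was the most abundant of the 10 per kilobase in each group, at 47.2 ± 3.92 in hyperoxic atria, 26.8 ± 10.3 in room-air atria, 12.3 ± 1.47 in hyperoxic ventricles and 12.2 ± 2.04 CPM per kilobase in room-air ventricles (SD, n = 5 each). In the ventricles Nqo1 was next, at 10.2 ± 0.720 CPM per kilobase in hyperoxia and 10.6 ± 2.59 CPM per kilobase in room air, within the spread of Hmox1 in room air. In hyperoxic atria Ephx1 was next at 24.1 ± 2.32 CPM per kilobase, before Srxn1 at 16.9 ± 1.95 and Txnrd1 at 14.8 ± 2.27 CPM per kilobase, whose spreads overlapped. Below these, G6pdx at 6.80 ± 0.913, Gclc at 6.28 ± 1.53 and Nqo1 at 6.21 ± 0.374 CPM per kilobase lay within each other's spread in hyperoxic atria, followed by Gclm at 5.52 ± 0.298 CPM per kilobase. Srxn1 stood at 5.96 ± 0.328 CPM per kilobase in room-air atria, among that same group of genes. Osgin1 and Slc7a11 were the lowest in every group, at 3.16 ± 0.911 and 0.144 ± 0.0309 CPM per kilobase in hyperoxic atria.

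A list of 14 genes was read for NRF2 regulation, not all of which control NRF2 itself. In the atrium 6 of them rose and 2 fell, where 19.7% of all genes rose and 24.2% fell. The 2 that fell were Btrc and Gsk3b, with log2 differences of -0.26 and -0.30 (edgeR adjusted p of 0.0233 and 0.0174). The median log2 difference was 0.0915 against -0.0627 for all genes. In the ventricle none passed in either direction, where 5.64% of all genes rose and 5.28% fell. The 2 lower calls became 0 without hyperoxic atrium 4 or hyperoxic ventricle 5 and 1 without hyperoxic atrium 2. At an unadjusted p under 0.05, 1 was higher and 3 were lower in the ventricle, while DESeq2 called 1 higher and 2 lower, and limma voom called 1 and 2. Nfe2l2 itself, which encodes NRF2, averaged 73.3 ± 6.79 CPM in hyperoxic atria and 73.1 ± 6.38 CPM in room-air atria (log2 difference 0.00, SE 0.09, edgeR adjusted p = 0.974). Keap1 averaged 57.7 ± 4.98 CPM in hyperoxic atria and 61.0 ± 3.45 CPM in room-air atria (log2 difference -0.08, edgeR adjusted p = 0.440). Bach1, the repressor of Hmox1, had a log2 difference of -0.20 (edgeR adjusted p = 0.194). None of these 3 passed in the ventricle, where their log2 differences were 0.01, -0.06 and 0.05.

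Among the partners of NRF2, the small MAF gene Mafg rose in the atrium to 73.2 ± 14.2 CPM in hyperoxia, against 43.8 ± 3.51 CPM in room air (log2 difference 0.74, edgeR adjusted p = 1.99e-05), and Maff rose by 0.54 (edgeR adjusted p = 0.00494). Sqstm1, whose product p62 sequesters KEAP1 and is itself an NRF2 target, stood at 452 ± 33.8 CPM in hyperoxic atria and 236 ± 14.3 CPM in room-air atria (log2 difference 0.94, edgeR adjusted p = 4.61e-09). In the ventricle Sqstm1 had a log2 difference of -0.23, which did not pass (edgeR adjusted p = 0.0551). Cdkn1a, a p53 target whose product p21 arrests the cell cycle and can bind NRF2, reached 238 ± 24.0 CPM in hyperoxic atria, against 45.3 ± 3.17 CPM in room-air atria (log2 difference 2.39, edgeR adjusted p = 3.11e-12).

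Of 26 further NRF2 targets 23 passed the filter. Several of them, among them Gsr, Me1, Pgd, Tkt, Prdx1, Txn1 and Ftl1, are counted again in the lists that follow. In the atrium 9 rose and 1, Aox1, fell, with a median log2 difference of 0.326. Over 34 other settings 5 to 15 rose and 1 to 3 fell, with 8 and 3 without the tilted libraries. In the ventricle none was called, with a median of -0.119, 2 lower and 0 higher at an unadjusted p under 0.05 and none by DESeq2 or limma voom. Gsr, the reductase that regenerates glutathione, rose by 0.50 in the atrium (edgeR adjusted p = 0.000147), Tkt, transketolase, by 0.46 (edgeR adjusted p = 0.000242) and the glutathione transferase Gstm1 by 0.62 (edgeR adjusted p = 0.000318). Ftl1, the light chain of ferritin, rose by 0.81 (edgeR adjusted p = 6.88e-07), with a value that is uncertain because near-identical pseudogene copies can share its reads.

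In glutathione synthesis and turnover, 14 of 15 genes passed the filter. In the atrium 6 rose and 1, Oplah, fell, with a median log2 difference of 0.297. Without hyperoxic atrium 4 or hyperoxic ventricle 1, 2 or 4 there were 2 lower calls. Slc3a2, the heavy chain that carries xCT to the membrane, reached 155 ± 22.6 CPM in hyperoxic atria, against 65.1 ± 2.81 CPM in room-air atria (log2 difference 1.25, edgeR adjusted p = 1.50e-09). Gss, glutathione synthetase, which completes the tripeptide after the ligase, rose by 0.93 (edgeR adjusted p = 2.59e-07). Chac1, which degrades glutathione and is an ATF4 target, stood at 17.5 ± 3.71 CPM in hyperoxic atria and 0.470 ± 0.123 CPM in room-air atria (log2 difference 5.21, edgeR adjusted p = 3.63e-09). Chac1 was the 1 gene of this list that rose in the ventricle, at 3.46 ± 2.77 CPM in hyperoxia, against 0.466 ± 0.212 CPM in room air (log2 difference 2.88, edgeR adjusted p = 0.000533). Without hyperoxic ventricle 2 there were 2 such genes, and with the Y-linked to Xist ratio as a covariate there were 0; the same covariate gave 7 higher and 0 lower atrial calls.

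The supply of NADPH, on which TXNRD1, NQO1 and glutathione reductase depend, was read from 14 genes. Of these 6 rose and 2, Idh1 and H6pd, fell in the atrium (median log2 difference 0.254), and 1 rose in the ventricle. Mthfd2, a mitochondrial folate enzyme and ATF4 target, stood at 120 ± 12.98 CPM in hyperoxic atria and 14.8 ± 2.13 CPM in room-air atria (log2 difference 3.01, edgeR adjusted p = 8.88e-11). It was also the gene that rose in the ventricle, by 0.62 (edgeR adjusted p = 0.0317). That ventricular call was lost without hyperoxic ventricle 4 or 6 or room-air ventricle 2, 3 or 5, and with the Y-linked to Xist ratio as a covariate. Rpia and Me1, for ribose-5-phosphate isomerase and cytosolic malic enzyme, rose by 0.80 and 0.61 in the atrium (edgeR adjusted p of 0.000180 and 0.00107). H6pd, the relative of G6pdx in the endoplasmic reticulum, fell by 0.42 on the log2 scale (edgeR adjusted p = 0.00429). With the Y-linked to Xist ratio as a covariate that call was lost, with 0 lower atrial calls in this list.

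In the thioredoxin system 8 of 15 genes rose and 1 fell in the atrium, with a median log2 difference of 0.47. In a fit with both covariates, length slope and ratio of Y-linked to Xist counts, 1 gene rose. Sesn2, sestrin 2, which is reached by NRF2, p53 and ATF4 alike, rose by 2.51 in the atrium (edgeR adjusted p = 3.11e-12) and by 0.65 in the ventricle (edgeR adjusted p = 0.00171). Sesn3 fell by 1.08 in the atrium (edgeR adjusted p = 5.57e-07). The mitochondrial reductase Txnrd2 and peroxiredoxin Prdx3 rose by 0.75 and 0.63 (edgeR adjusted p of 1.07e-05 and 1.21e-05). In the ventricle 3 genes of this system rose, Sesn2, Sesn1 and Txnip, the last of them encoding the thioredoxin-binding inhibitor, and 1, Prdx5, fell by 0.57 (edgeR adjusted p = 0.0498). The call of Prdx5 was lost on leaving out any 1 of 13 libraries, all of them room-air or ventricular, and without hyperoxic ventricle 5 only 1 gene of this system rose there. With the Y-linked to Xist ratio as a covariate none of these ventricular calls was left, Sesn2 included.

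Around haem oxygenase, 3 of 14 genes of haem and iron handling rose and 2 fell in the atrium (median log2 difference 0.206), and 3 rose in the ventricle. Of all genes tested, 19.7% rose and 24.2% fell in the atrium, so the atrial counts lay near or below those shares. Without hyperoxic atrium 4 only 1 rose in the atrium. Ferroportin, Slc40a1, which exports iron, fell in the atrium by 0.43 (edgeR adjusted p = 0.00415) and rose in the ventricle by 0.56 (edgeR adjusted p = 0.00603). With the Y-linked to Xist ratio as a covariate all 3 ventricular calls of this list were lost, that of Slc40a1 among them, and 1 of the 2 lower atrial calls was left. The transferrin receptor Tfrc fell in the atrium by 0.45 (edgeR adjusted p = 0.000603), and biliverdin reductase Blvra, which acts after HMOX1, rose by 0.47 (edgeR adjusted p = 0.0157).

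Among 9 paralogues of the members, 4 rose and 1 fell in the atrium (2 rose without room-air atrium 1 or 3, and 2 rose and 0 fell with the Y-linked to Xist ratio as a covariate), and none passed in the ventricle, where 1, Osgin2, was higher at an unadjusted p under 0.05 and 1 was higher by DESeq2 and by limma voom. Nqo2 averaged 23.1 ± 2.28 CPM in hyperoxic atria and 25.1 ± 0.419 CPM in room-air atria and did not pass (edgeR adjusted p = 0.231). Hmox2, the constitutive haem oxygenase, rose in the atrium by 0.35 (edgeR adjusted p = 0.0262), Osgin2 by 0.30 (edgeR adjusted p = 0.0442) and Slc7a5, the light chain of the leucine transporter, by 1.53 (edgeR adjusted p = 3.63e-09). Txnrd3, Slc7a8 and Ephx2 had atrial log2 differences of 0.16, 0.40 and 0.12 and did not pass. Txnrd2, Txnrd3, Hmox2 and H6pd were also counted in earlier lists. Since the 7 lists share genes, their counts are not independent of each other. In all 7 lists the shares are to be read against those of all genes, 19.7% higher and 24.2% lower in the atrium and 5.64% higher and 5.28% lower in the ventricle.

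**Figure D5:**
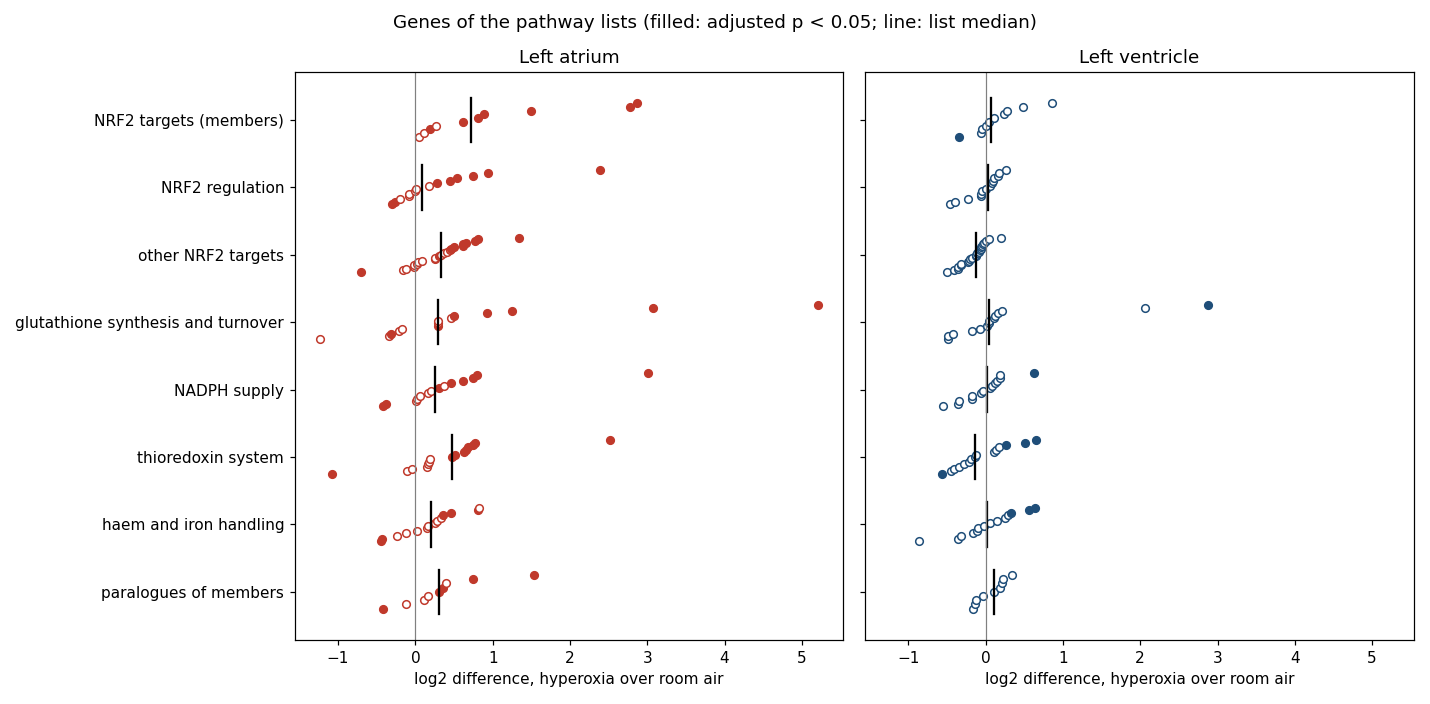
Log2 difference of hyperoxia over room air (edgeR) for each gene of the members and of 7 pathway lists, in the left atrium and in the left ventricle; filled points passed at an adjusted p under 0.05, and the vertical line is the list median. The members' median is 0.718 in the atrium and 0.0734 in the ventricle, and Chac1 at 5.21 is the point farthest to the right.

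Marker levels of other cell types moved in the atrium as well. Fibroblast markers summed to 7830 to 11020 CPM in hyperoxic atria and 15090 to 16220 CPM in room-air atria, and endothelial markers to 864 to 1161 CPM and 1205 to 1428 CPM in the same groups. Where 24.2% of all genes fell and 19.7% rose, 8 of 10 fibroblast markers fell and 1, Tcf21, rose. Of 10 endothelial markers 8 fell and 1, Emcn, rose. The part of these shifts in the members' atrial differences was not tested. Hyperoxic atrium 2 was the lone hyperoxic atrium with more Y-linked than Xist counts and is also a tilted library. Set against the room-air atria in a fit to libraries of that kind, it differed on the log2 scale by 3.30 for Osgin1, 2.53 for Slc7a11, 1.52 for Srxn1, 0.88 for Ephx1, 0.98 for Hmox1, 0.44 for Txnrd1 and 0.12 for Gclm. These values describe 1 library, assumed to vary like the other groups. No call is reported from them, although this fit is among the other settings in which calls were counted as kept or lost.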

How the data were processed

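Polyadenylated RNA of 20 mouse heart chambers was sequenced. The authors deposited raw read counts per gene symbol, not normalized, for 55367 genes per library, in 2 columns of which 0 went unused. Per the submitters' processing notes, the genome build was GRCm38.p6 and the tools were STAR 2.7.6a, fastp 0.20.1, Salmon 1.3.0, featureCounts and Subread 2.0.1. Which annotation release was used, and with what strand setting, is not given in the sources used here, so reads of overlapping genes on opposite strands may not be told apart.

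Testing used edgeR 4.0.16 in R 4.3.3: filterByExpr (16598 genes kept), TMM scaling, and a robust quasi-likelihood model with 1 coefficient per group over the 20 libraries (common biological coefficient of variation 0.183). The 5 contrasts were hyperoxia over room air in each chamber, atrial minus ventricular response, and atrium over ventricle at each oxygen level. P-values were adjusted by the Benjamini-Hochberg method over all 16598 genes, with a threshold of 0.05. Standard errors were derived from F as the ratio of the log2 difference to its square root. CPM are counts over TMM-scaled library sizes. The length slope is the slope of a library's log2 deviation from the mean of its chamber on log2 exonic length over 11133 genes with a mean of at least 5 CPM. The fit was tested on simulated counts, with 66 or 67 genes changed per fold among 16351 tested in the atrial and 16404 in the ventricular comparison. Of simulated 1.5-fold changes it recovered 58.2% in the atrial and 68.7% in the ventricular comparison, and of 2-fold changes 97% and 100%. Among its calls 7.61% were false in the atrial and 5.29% in the ventricular comparison, at the threshold of 0.05. In the data 43.9% and 10.9% of genes passed, a far larger part than was changed in the simulation, so these rates need not hold there. Alternatives used DESeq2 1.42.0, limma 3.58.1 (voom with quality weights), other scalings and filters, covariates, blocks and fewer libraries.

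All 10 members were named in every comparison. Of every other list, up to 4 genes with the smallest p in each hyperoxia comparison were named. To these were added Nfe2l2, Keap1, Bach1, Mafg, all paralogues and the genes that fell in the atrium. Members, lists, rules and the libraries set aside were chosen with earlier results of these data known. Positions and exonic lengths came from GENCODE release 21 for mouse, and promoter windows from RefSeq, both on GRCm38. Precision was limited by 5 libraries per group and, for Slc7a11, by counts of 3 to 111 reads.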

Additional observations from a re-analysis of the deposited data

Results flagged for a closer look

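Of 40 sets of 5 libraries (10 genes in 4 groups), 4 held a library far from the others of its group by Dixon's criterion, where chance gives about 1 in 20. These were Nqo1 at 10.65 CPM in hyperoxic atrium 2, Srxn1 at 22.97 CPM in hyperoxic ventricle 4, Srxn1 at 16.27 CPM in room-air ventricle 4 and Slc7a11 at 2.756 CPM in hyperoxic atrium 1.

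The responses to hyperoxia differed between the chambers, by edgeR's quasi-likelihood test of the difference, for 5 members: the log2 value, atrium minus ventricle, was 2.76 for Osgin1, 1.91 for Slc7a11, 1.26 for Srxn1, 1.23 for Ephx1 and 0.80 for Hmox1. Of all genes 17.0% passed this test as higher and 19.5% as lower. Most named genes were picked by small p in the hyperoxia comparisons that make up this difference, so how many passed is no result. Over whole lists, 5 of 14 genes passed as higher and 3 as lower for NRF2 regulation. For further targets it was 10 and 1 of 23, for glutathione 7 and 1 of 14 and for NADPH 7 and 1 of 14. For thioredoxin it was 9 and 3 of 15, and for haem and iron 4 and 2 of 14. The NRF2 regulation list gave 2.44 for Cdkn1a, 1.16 for Sqstm1, 0.94 for Maff, 0.915 for Rbx1, 0.64 for Mafg, -0.35 for Nfe2l1, -0.41 for Gsk3b and -0.43 for Btrc. Glutathione genes gave 2.34 for Chac1, 1.43 for Slc3a2, 0.88 for Gss, 0.72 for Ggt5, 0.45 for Gsr and -0.43 for Oplah. Gstm1 and Aox1, of the further NRF2 targets, gave 0.84 and -0.91. NADPH genes gave 2.39 for Mthfd2, 1.29 for Pgls, 1.15 for Rpia, 0.72 for Taldo1, 0.67 for Me1, 0.64 for Tkt and -0.61 for H6pd. Thioredoxin genes gave 1.86 for Sesn2, 1.18 for Txn1, 1.09 for Prdx5, 0.89 for Txnrd2, 0.50 for Prdx3, -0.38 for Sesn1, -0.56 for Txnip and -1.25 for Sesn3. Haem and iron genes gave 0.83 for Ftl1, 0.64 for Blvrb, 0.56 for Blvra, 0.51 for Hmox2, -0.50 for Tfrc and -0.99 for Slc40a1, and the transporter Slc7a5 gave 1.32.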

How the results depend on the processing

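No called value of a member changed sign under any of the other settings run. The 7 members higher in the atrium became 9 with limma voom. The 5 with the greater response in the atrium became 7 with DESeq2 and 6 with limma voom. Of the members, 0 passed as higher in the ventricle, against 1 with DESeq2 and with only the libraries compared, and 2 with limma voom, without the 3 libraries tilted towards short transcripts and with the replicate block. The 1 lower ventricular call, Ephx1, became 0 with no filter, only the libraries compared, only libraries with more Y-linked than Xist counts, the replicate block, the Y-linked to Xist ratio as covariate, and that ratio with the length slope. With only the libraries with more Y-linked counts, the hyperoxic atrium is 1 library, number 2, itself tilted and assumed to vary like the other groups. No counts of calls are given from that fit for comparisons with the hyperoxic atrium.

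Over all genes the ventricular calls, 936 higher and 877 lower, became 535 and 486 with no filter, 1561 and 1404 with limma voom, 1752 and 1553 without the tilted libraries, 157 and 152 without 3 ventricular libraries that lay apart (hyperoxic 4, room-air 1 and 4), 150 and 127 with only libraries with more Y-linked counts, 26 and 11 with the ratio as covariate, and 163 and 169 with both covariates. DESeq2 gave 1516 lower. For the difference of the responses, 2824 higher and 3236 lower, the counts were 1866 higher without the tilted libraries, 1111 and 1517 with the length slope, and 1022 and 1406 with both covariates. In the atrium, 3271 higher and 4020 lower became 2399 lower with the ratio and 1236 and 1504 with both covariates. The cause was not tested.

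Leaving out 1 library at a time gave 6 to 7 members higher in the atrium, 0 to 2 higher and 0 to 1 lower in the ventricle, 5 to 7 with the greater response in the atrium, 8 higher in the atrium under hyperoxia and 4 to 6 in room air. Over all genes it gave 536 to 1307 higher and 388 to 1220 lower in the ventricle, with counts under the fit described by over 1.5 times without hyperoxic ventricle 4, 5 or 6 or room-air ventricle 1, 2 or 4, 2817 to 3931 and 3263 to 4299 in the atrium, and 2366 to 3081 and 2260 to 3564 for the difference.

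Whether atrium and ventricle libraries of a number and oxygen level came from the same mouse is not stated in the labels. Which of Y-linked and Xist counts was higher was the same in both chambers for every number shared. The numbers were not taken as pairs, because several same-numbered libraries did not deviate together. Deviations of same-numbered libraries from their group means correlated at 0.0345 to 0.319 between the chambers in room air, 0.0219 to 0.157 in hyperoxia, and -0.149 to 0.323 between oxygen levels, and not every library correlated best with its own number. A block for the number within each oxygen level gave no value for the hyperoxia comparisons, and the fit to only the libraries compared gave none for the difference. Slc7a11 in the ventricle rested on 3 to 18 reads.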
